A study of Mus musculus with 20 samples.

Results

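The genes described here are 10 regulators and receptors of the natural killer (NK) cell lineage, measured by RNA sequencing in monocyte-derived macrophages (MoMac) sorted from fibrotic mouse livers. They are the transcription factors Tbx21, Eomes, Id2 and Runx3, the kinase Txk, the cytokine receptor chains Il2rb, Il12rb2, Il18r1 and Il18rap, and the activating receptor Ncr1. They were chosen by gene symbol, with earlier results of these data known, from a table of 59311 annotated genes, and all 10 were found there. The libraries came from 10 male C57BL/6 mice aged 10 to 12 weeks that all received CCl4 (0.6 ml/kg, 2 injections per week for 4 weeks), so there is no group without liver injury. Ac-6-FP, which occupies the presenting molecule MR1 without activating mucosal-associated invariant T (MAIT) cells, was given to mice 16 to 20 at 0.25 mg/kg. Mice 11 to 15 received the vehicle alone (1% DMSO in PBS). Both were given 2 h before the last CCl4 injection and then daily for 2 days. From each liver, CD11b+ F4/80+ Ly6G- CD11c- CD3- cells were sorted into a Ly6Chi and a Ly6Clo subset, about 30000 cells per library at a purity above 90%, which gave 20 libraries, 5 in each of 4 groups. The sort removed cells with surface CD3, and its description names no NK cell antigen. The design asks whether the 10 genes differed between the subsets of the same liver, and whether they differed between Ac-6-FP and vehicle mice within the Ly6Clo subset.

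NK cells arise from innate lymphoid progenitors, a step for which Id2 is required, and the related T-box factors T-bet (Tbx21) and Eomesodermin (Eomes) direct their maturation and the transcription of effector genes such as perforin and interferon gamma. Mature NK cells carry receptors for interleukin-15, interleukin-12 and interleukin-18, cytokines that monocytes and macrophages can make, and NKp46 (Ncr1) is one of the receptors used to mark them in mice. In the liver they share several of these genes with type 1 innate lymphoid cells (ILC1).

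Promoters are shown for Ncr1 and Txk, the only members for which every Ly6Clo library lay above every Ly6Chi library, and for Runx3, which encodes a factor that binds the first of the motifs searched and was not called different between the subsets. Each line gives the 250 bases before the RefSeq transcription start (GRCm38.p6, which is mm10), 5′ to 3′ on the strand of the gene, at chr7:4337474-4337723 (plus strand) for Ncr1, chr5:72752778-72753027 (minus strand) for Txk and chr4:135120395-135120644 (plus strand) for Runx3. Capitals mark the RUNX core TGTGGT and the ETS core GGAAGT on either strand, so that a RUNX core on the other strand reads ACCACA.
Ncr1: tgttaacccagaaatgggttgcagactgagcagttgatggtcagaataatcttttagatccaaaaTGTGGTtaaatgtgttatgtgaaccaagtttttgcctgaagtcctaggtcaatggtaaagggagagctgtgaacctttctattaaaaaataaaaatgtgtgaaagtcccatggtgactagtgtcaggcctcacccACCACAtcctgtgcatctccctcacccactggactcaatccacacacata
Txk: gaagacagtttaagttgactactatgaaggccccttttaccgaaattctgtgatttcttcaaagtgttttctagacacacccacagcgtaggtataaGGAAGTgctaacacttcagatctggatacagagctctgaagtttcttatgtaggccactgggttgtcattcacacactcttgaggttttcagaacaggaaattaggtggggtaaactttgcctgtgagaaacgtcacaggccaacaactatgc
Runx3: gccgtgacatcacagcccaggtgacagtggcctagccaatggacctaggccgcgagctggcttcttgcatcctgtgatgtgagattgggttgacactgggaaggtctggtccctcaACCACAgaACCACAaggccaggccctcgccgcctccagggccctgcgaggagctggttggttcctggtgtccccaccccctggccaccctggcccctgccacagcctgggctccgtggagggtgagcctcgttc
The Ncr1 window held the RUNX core at 185 and 50 bases before the start, and the Runx3 window held it at 134 and 126 bases, whereas the Txk window held an ETS core at 153 bases. Windows were found for 9 of the 10 members (all but Il2rb). The RUNX core occurred in 2 of these 9 windows, against 14.2% of 27025 promoters of the same length, and the ETS core in 4 of 9 (Tbx21, Il18r1, Il18rap and Txk), against 20.0%. A T-box half-site (GGTGTGA, either strand) was in none of the 9 windows and in 3.31% of all promoters, and a STAT palindrome (TTCNNNGAA) was in 1, that of Il12rb2, and in 7.18% of all promoters. These matches describe letters in a window and were not tested as binding sites.

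The values are normalized counts, that is reads on the constitutive regions of a gene scaled by the DESeq2 size factor of the library. Gene length does not enter, so levels are compared between libraries and not between genes. From 5693049 to 18682437 reads were counted on genes per library, and 1 read was worth 0.62 to 2.09 normalized counts. The Ly6Clo library of vehicle mouse 13 stood apart, with 5693049 reads and 5343 genes above 0, against 9017 to 15766 genes in the other 19 libraries. Several results, among them the treatment difference of each member in Ly6Clo, are also given without mouse 13. In bulk libraries, fewer cells of a type and less RNA per cell cannot be told apart. Where exact tests are given, the smallest two-sided p is 0.00195 for 10 mice compared within mouse, 0.0625 for 5 mice compared within mouse and 0.00794 for 5 mice against 5.

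Of the members, 6 were higher in Ly6Clo than in Ly6Chi MoMac of the same livers, namely Ncr1, Txk, Il2rb, Il12rb2, Il18r1 and Id2 (limma on within-mouse differences, Benjamini-Hochberg adjusted p under 0.05 over 17248 genes). No member was lower. Among all genes tested, 5.22% were called in either direction, 3.41% higher and 1.81% lower in Ly6Clo. The members were chosen with earlier results of these data known, so such shares are a background and no test of the members. The other 4 members, Eomes, Tbx21, Il18rap and Runx3, did not pass the threshold. All 10 members passed the filter on low values (a mean of 10 normalized counts in at least 1 group), but 6 of them (Eomes, Tbx21, Il2rb, Il18r1, Txk and Ncr1) passed it only through their Ly6Clo libraries and so could hardly have been called in the other direction. The means differed 3.15-fold for Id2, which was read in every library of both subsets, and at least 464-fold for Txk, which had no read in Ly6Chi libraries.

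**Figure D1:**
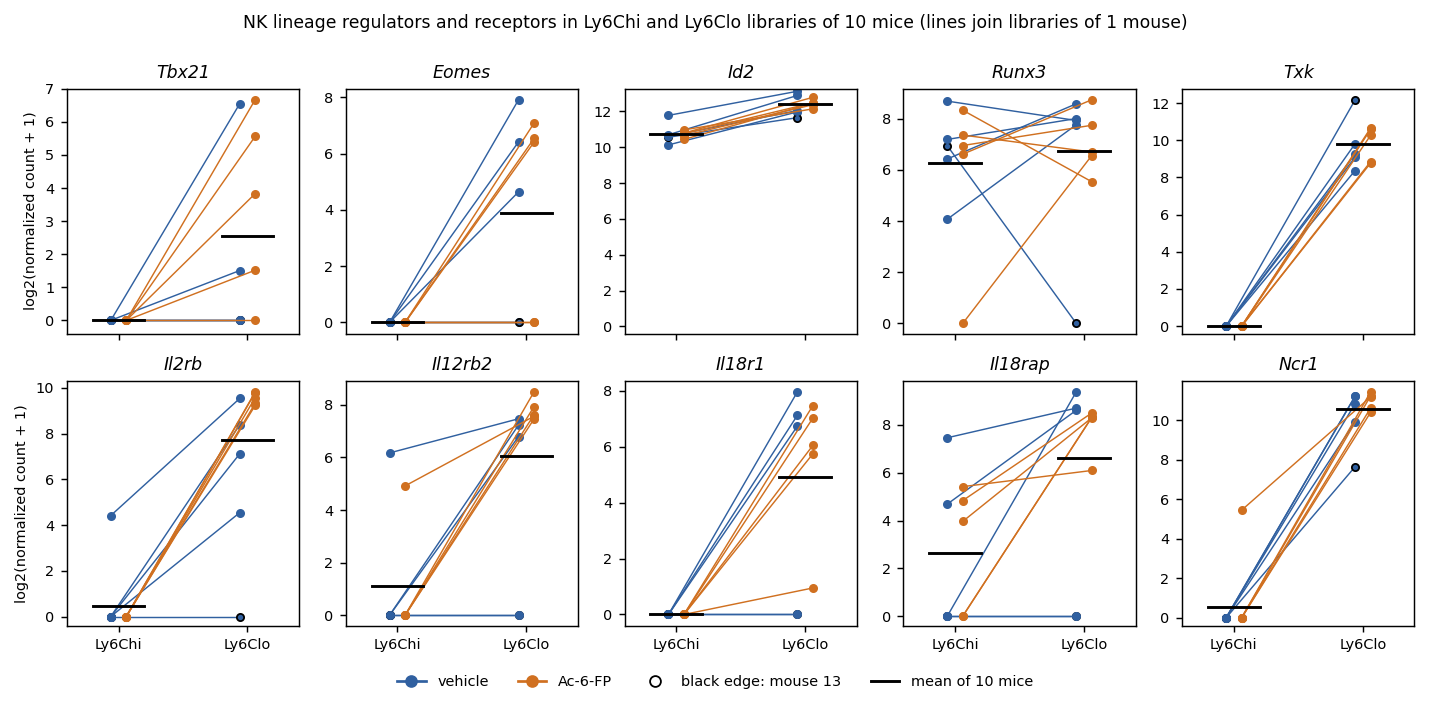
Level of each of the 10 members, as log2(normalized count + 1) on the vertical axis, in the Ly6Chi and Ly6Clo libraries of 10 mice. Lines join both libraries of a mouse, blue is vehicle, orange is Ac-6-FP, black-edged points are mouse 13 and black bars are means over 10 mice. Ncr1 and Txk were above every Ly6Chi library in all 10 Ly6Clo libraries, whereas the lines of Runx3 cross.

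The T-box factors were read only in Ly6Clo libraries, and not in all of them. Gene positions are those of the table, on mm10. Tbx21 (chr11:97098007-97115332, minus strand), which encodes T-bet, stood at 1.84, 0, 0, 0 and 92.6 normalized counts in the Ly6Clo libraries of vehicle mice 11 to 15 and at 13.2, 101, 0, 46.3 and 1.86 in those of Ac-6-FP mice 16 to 20. It was at 0 in all 10 Ly6Chi libraries. More than 3 reads were counted in only 4 of 10 Ly6Clo libraries, 260 reads over all 10, so this gene lay near the limit of what these libraries detect. Its mean of 25.7 ± 40.1 (SD, n = 10) was at least 9.74-fold higher than the level that 3 reads per Ly6Chi library would give (2.64 normalized counts). The log2 difference of 2.56 (SE 0.85) was not significant (limma, adjusted p = 0.129), with 6 of 10 mice higher in Ly6Clo and 4 at 0 in both libraries. Its exact permutation p of 0.0312 is the smallest that 6 non-zero differences allow.

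Eomes (chr9:118478189-118487608, plus strand), the T-box factor that in mice separates NK cells from most ILC1, was also at 0 in 4 of 10 Ly6Clo libraries, of which mice 12 and 13 were at 0 for Tbx21 as well. Its Ly6Clo values were 23.9, 0, 0, 84.5 and 240.1 normalized counts in vehicle mice 11 to 15 and 91.8, 0, 83.7, 0 and 134.5 in Ac-6-FP mice 16 to 20, with 0 in every Ly6Chi library. The 4 mice at 0 in Ly6Clo were therefore 2 of each treatment, and only mouse 13 of them had a shallow library. The mean of 65.8 ± 78.5 (SD, n = 10) was at least 25.0-fold above the Ly6Chi limit. Its log2 difference was 3.90 (SE 1.08, limma adjusted p = 0.0635), and without mouse 13 it was 4.37 and passed the threshold (adjusted p = 0.0437). The exons of Eomes overlap those of the antisense gene Gm33460, and whether reads were counted by strand is not given in the sources used here, so reads of both genes may be joined.

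Id2 (chr12:25093801-25096095, minus strand), an inhibitor of E proteins that all innate lymphoid lineages need and that myeloid cells also express, was the only member read in all 20 libraries. It ranged from 3216 to 8932 normalized counts in Ly6Clo libraries (median 5473) and from 1121 to 3513 in Ly6Chi libraries (median 1633). Each mouse was higher in Ly6Clo, 10 of 10, and the groups overlapped only because the Ly6Chi library of mouse 11 (3513) exceeded the Ly6Clo library of mouse 13 (3216). The means of 5625 ± 1781 and 1785 ± 651 (SD, n = 10 each) gave a 3.15-fold difference, and the log2 difference of 1.66 (SE 0.14) had the smallest error of the 10 members (limma adjusted p = 2.11e-05, exact permutation p = 0.00195).

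Runx3 (chr4:135120645-135177990, plus strand), which encodes a factor of cytotoxic lymphocytes that also acts in myeloid cells, was present in both subsets without a difference beyond their spread. In Ly6Clo libraries it stood at 382.6, 242.8, 0, 256.1 and 216.5 normalized counts in vehicle mice and at 45.4, 213.1, 93.2, 102.8 and 426.7 in Ac-6-FP mice. In Ly6Chi libraries it stood at 85.0, 411.0, 121.8, 145.0 and 15.8 in vehicle mice and at 321.0, 122.8, 0, 163.3 and 96.9 in Ac-6-FP mice. The ranges of the subsets coincided, and 6 of 10 mice were higher in Ly6Clo. The log2 difference was 0.50 (SE 1.08, 95% interval -1.87 to 2.87, limma adjusted p = 0.832), and it was 1.34 without mouse 13 and -0.17 without mouse 18.

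Txk (chr5:72695978-72752777, minus strand), a Tec family kinase of T and NK cells, separated the subsets without overlap. Its Ly6Clo values were 539.9, 329.6, 4600, 895 and 613 normalized counts in vehicle mice 11 to 15 and 1526, 1605, 435, 459 and 1226 in Ac-6-FP mice 16 to 20, and no read was counted in any Ly6Chi library. The library of mouse 13 was the highest by far, whereas it was the lowest or at 0 for the 9 other members. The mean of 1223 ± 1273 (SD, n = 10) was at least 464-fold above the Ly6Chi limit. The log2 difference was 9.78 (SE 0.58, limma adjusted p = 1.48e-06, exact permutation p = 0.00195), and it remained at 9.48 without mouse 13.

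Il2rb (chr15:78480551-78495067, minus strand) encodes the beta chain shared by the receptors of interleukin-2 and interleukin-15, the cytokine on which NK cell survival depends. It stood at 742, 22.3, 0, 138 and 334 normalized counts in the Ly6Clo libraries of vehicle mice 11 to 15 and at 639.5, 762, 887, 602 and 905 in those of Ac-6-FP mice 16 to 20. In Ly6Chi libraries it was at 20.4 in mouse 11 and at 0 in the other 9. Mouse 13 was the only one with 0 in both libraries, and each of the other 9 was higher in Ly6Clo. The mean was 503 ± 351 (SD, n = 10) in Ly6Clo, at least 191-fold above the Ly6Chi limit of 2.64 normalized counts, and the Ly6Chi mean of 2.04, which rests on mouse 11 alone, lay below that limit. On the log2 scale the subsets differed by 7.29 (SE 0.79, limma adjusted p = 0.000165, exact permutation p = 0.00391), and 7.92 without mouse 13.

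The beta 2 chain of the interleukin-12 receptor, Il12rb2 (chr6:67291318-67376188, minus strand), was measured in 8 of 10 Ly6Clo libraries. Its values were 149.9, 110.3, 0, 0 and 177 normalized counts in vehicle mice and 244, 196, 189, 176 and 361 in Ac-6-FP mice. In Ly6Chi libraries it was at 71.2 in mouse 15, at 29.3 in mouse 18 and at 0 elsewhere. This gave a log2 difference of 4.95 (SE 0.97, limma adjusted p = 0.0103), 8 of 10 mice were higher in Ly6Clo, and the exact permutation p was 0.00781. With edgeR on reads recovered from the values the difference was 7.54 and no longer passed (adjusted p = 0.0885). The exons of Il12rb2 overlap those of Serbp1 on the other strand, a gene at 239 to 1257 normalized counts in Ly6Chi and 394 to 1416 in Ly6Clo libraries. Reads of both genes may be joined where they overlap, which was not tested. The 8 Ly6Chi and 2 Ly6Clo libraries without a read of Il12rb2 all had reads of Serbp1.

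Both chains of the interleukin-18 receptor are encoded side by side on chromosome 1, Il18r1 (the binding chain) at chr1:40465551-40500854 and Il18rap (the accessory chain) at chr1:40515362-40551705, 14507 bases apart on the plus strand. Il18r1 stood at 249, 139, 0, 0 and 106 normalized counts in the Ly6Clo libraries of vehicle mice and at 65.3, 52.7, 177, 129 and 0.93 in those of Ac-6-FP mice, and at 0 in all Ly6Chi libraries. Il18rap stood at 391, 416, 0, 0 and 667 in the same vehicle libraries and at 319, 67.3, 317, 314 and 361 in the Ac-6-FP libraries. Mice 13 and 14 had no read of either chain in Ly6Clo. Unlike its neighbour, Il18rap was also found in 5 Ly6Chi libraries, at 24.8 and 175.6 in vehicle mice 11 and 12 and at 41.8, 14.6 and 27.6 in Ac-6-FP mice 17, 19 and 20.

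Of these chains, Il18r1 was called higher in Ly6Clo, with a mean at least 34.9-fold above the Ly6Chi limit and a log2 difference of 4.91 (SE 1.03, limma adjusted p = 0.0152). With edgeR it was no longer called (adjusted p = 0.204). Il18rap had a 10.03-fold higher mean and a log2 difference of 3.99 (SE 1.08) that did not pass (limma adjusted p = 0.0596). Its Ly6Chi mean was carried by mouse 12, without which the means of 271 and 12.1 differed 22.4-fold. The difference passed in 6 of 19 alternatives. These were the fits without mouse 13 (4.35, adjusted p = 0.0422) and without mouse 17 (adjusted p = 0.048), a pseudocount of 10 (0.0241), a filter at 100 (0.0434), quantile normalization (0.0185) and genes detected per library as a covariate (0.0471). With edgeR it did not pass (adjusted p = 0.342). In both cases 8 of 10 mice were higher in Ly6Clo and the exact permutation p was 0.00781. For Il18r1 these 8 include mouse 20, with 1 read in Ly6Clo, and only 7 Ly6Clo libraries held more than 3 reads.

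Ncr1 (chr7:4337723-4345169, plus strand) encodes NKp46, an activating receptor of NK cells and other innate lymphoid cells. It was read in every Ly6Clo library, at 2365, 963, 198, 2357 and 1817 normalized counts in vehicle mice 11 to 15 and at 2744, 1556, 2380.0, 1337 and 2299 in Ac-6-FP mice 16 to 20. The only Ly6Chi library with reads was that of mouse 20, at 42.5. The lowest Ly6Clo library, that of mouse 13, was thus still above the highest Ly6Chi library. The means were 1802 ± 792 and 4.25 ± 13.4 (SD, n = 10 each), the latter from mouse 20 alone, and without that mouse the Ly6Clo mean was at least 652-fold above the Ly6Chi limit. Over all 10 mice the log2 difference was 10.01 (SE 0.69, limma adjusted p = 4.7e-06, exact permutation p = 0.00195).

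The members Ncr1, Txk and Id2 were higher in Ly6Clo in 10 of 10 mice, a pattern that 1.98% of all genes tested showed. For 2, Ncr1 and Txk, every Ly6Clo library exceeded every Ly6Chi library, as for 0.974% of genes. In all, 4 members (Eomes, Tbx21, Il18r1 and Txk) were at 0 in every Ly6Chi library, as were 8.17% of genes. A value of 0 in these libraries allows up to 3 reads, or 1.87 to 3.21 normalized counts depending on the library, and this limit covers counting error only. Without mouse 13, 8 members were called, the 6 above with Eomes and Il18rap, where 6.63% of all genes were called. With edgeR 4 were called, namely Ncr1, Txk, Il2rb and Id2, where 2.96% of all genes were.

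The difference was also fitted within each treatment. In the 5 vehicle mice 4 members were called higher in Ly6Clo (Ncr1, Txk, Id2 and Il2rb), where 2.35% of all genes were called in either direction and 1.54% higher. In the 5 Ac-6-FP mice 5 members were called (the same 4 and Il12rb2), where 2.94% of genes were called and 2.19% higher. The log2 differences in vehicle and Ac-6-FP mice were 10.16 and 9.87 for Ncr1, 9.74 and 9.82 for Txk, and 1.58 and 1.73 for Id2, each within 1 SE of the other. For Il2rb they were 5.03 (SE 1.12) and 9.55 (SE 1.12), and for Il12rb2 3.07 (SE 1.37) and 6.83 (SE 1.37). The plot of subset differences by treatment shows these intervals.

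**Figure D2:**
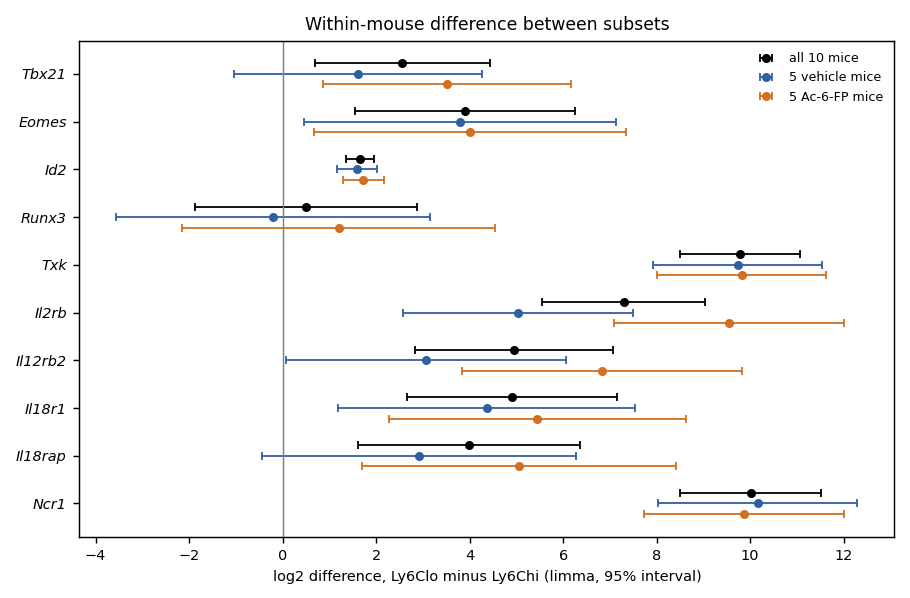
Log2 difference between Ly6Clo and Ly6Chi libraries of the same mouse (horizontal axis) for each member, from limma, with 95% intervals, over all 10 mice (black), 5 vehicle mice (blue) and 5 Ac-6-FP mice (orange). The intervals of Ncr1, Txk, Id2, Il2rb, Eomes, Il18r1 and Il12rb2 lie above 0 in both treatments, and that of Runx3 spans 0 in all 3 fits.

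Within the Ly6Clo subset, no member was called different between Ac-6-FP and vehicle mice (limma, 0 of 10), where 9 of all genes tested, 0.0522%, were called. With edgeR on recovered reads the count was also 0. At an unadjusted p under 0.05, 1 member passed, Il2rb, where 9.31% of all genes did. The median log2 difference of the members was 0.94 against 0.91 for all genes tested, and 10 of 10 members and 70.5% of all genes had a difference above 0. Both the median and the share of the members thus lay beside a shift of the whole table in the same direction. The means of normalized counts, in contrast to the log2 differences, were lower in Ac-6-FP than in vehicle mice for several members. These were Eomes (62.0 and 69.7), Il18r1 (85.0 and 98.8), Il18rap (275 and 295), Txk (1050 and 1396) and Runx3 (176 and 220). Without mouse 13 the median of all genes was 0.34 and that of the members 0.43, and with the genes detected per library as a covariate the medians were 0.06 and 0.07. The vehicle Ly6Clo libraries had 5343 to 15723 genes above 0 (median 10379) and the Ac-6-FP libraries 11156 to 15766 (median 14084). With edgeR the member median was -0.09 and that of all genes 0.29.

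Il2rb and Il12rb2 had the largest differences between treatments in Ly6Clo. Il2rb had a mean of 759 ± 138 normalized counts in Ac-6-FP mice and 247 ± 307 in vehicle mice (SD, n = 5 each). The Ac-6-FP values all lay at 602 or above, and only vehicle mouse 11 (742) reached into that range. The log2 difference was 3.63 (SE 1.58, 95% interval 0.07 to 7.19), with an exact permutation p of 0.0238 and a limma adjusted p of 0.532 over all genes. Without mouse 13, which had no read of Il2rb, it was 2.15, with genes detected as a covariate 1.41 and with edgeR 1.56.

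Il12rb2 had a mean of 233 ± 75.9 in Ac-6-FP mice and 87.4 ± 83.2 in vehicle mice (SD, n = 5 each), and 4 of the 5 Ac-6-FP libraries exceeded every vehicle library. Vehicle mice 13 and 14 were at 0. The log2 difference was 3.52 (SE 1.68, 95% interval -0.25 to 7.29, exact permutation p = 0.0159, limma adjusted p = 0.545), and 2.44 without mouse 13, 1.46 with the covariate and 1.37 with edgeR. Neither gene was past the threshold over all genes in any of the settings run.

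For the other 8 members the intervals spanned 0. The means in Ac-6-FP and vehicle mice were 2063 ± 592 and 1540.0 ± 943 for Ncr1, 1050.3 ± 569 and 1396 ± 1803 for Txk, and 5649 ± 924 and 5601 ± 2506 for Id2 (SD, n = 5 each). The vehicle mean of Txk was carried by mouse 13, without which it was 595 ± 234 (n = 4) and the log2 difference moved from 0.08 to 0.69. That of Ncr1 was lowered by the same mouse, without which it was 1875 ± 660 (n = 4) and the log2 difference moved from 0.80 to 0.17. Id2 had the narrowest interval, -0.54 to 0.76 around a log2 difference of 0.11, so a change of 1 log2 unit in either direction lay outside it. The intervals of Eomes (-4.80 to 5.22), Il18r1 (-3.53 to 5.69) and Il18rap (-2.12 to 7.24) were too wide to show whether these genes differed. Without mouse 13 the log2 difference moved from 0.21 to -0.74 for Eomes, from 1.08 to -0.0088 for Il18r1, from 2.56 to 1.23 for Il18rap, from 1.91 to 1.503 for Tbx21 (1.12 without mouse 17 and 3.14 without mouse 15), from 0.60 to -1.02 for Runx3 and from 0.11 to -0.0609 for Id2. The direction was not stable: the sign of the log2 difference turned under quantile normalization, the genes-detected covariate, edgeR or the loss of 1 mouse for Eomes, Il18r1, Txk, Id2 and Runx3, and under edgeR for Il18rap. Only Ncr1, Il2rb, Il12rb2 and Tbx21 kept a positive sign in each setting run.

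**Figure D3:**
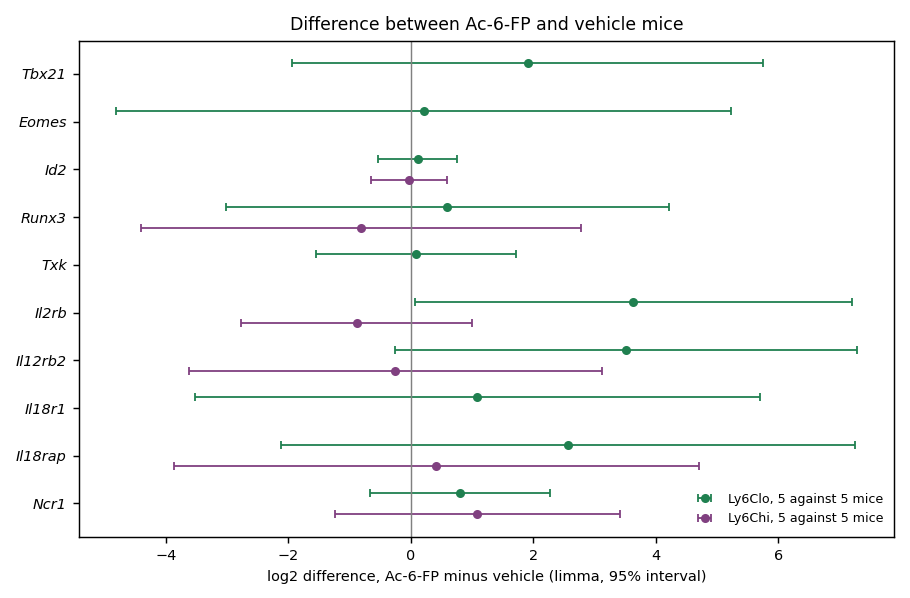
Log2 difference between Ac-6-FP and vehicle mice (horizontal axis) for each member in Ly6Clo (green) and Ly6Chi (purple) libraries, 5 against 5 mice, from limma with 95% intervals. In Ly6Clo the interval of Il2rb alone leaves out 0, and Txk, Il18r1, Eomes and Tbx21 have no Ly6Chi point because all Ly6Chi libraries were at 0.

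In Ly6Chi libraries no member was called between treatments (limma, 0 of 10, where 0.0754% of genes were called), none passed at an unadjusted p under 0.05 (8.73% of genes did), and edgeR called none. Id2 stood at 1698 ± 226 normalized counts in Ac-6-FP mice and 1873 ± 940 in vehicle mice (SD, n = 5 each), the latter spread by mouse 11. The difference in response between the subsets was tested directly on the within-mouse differences. No member and no other gene was called (limma, 0 of 17248 genes, where 4.87% had an unadjusted p under 0.05, and edgeR called no member). For Il2rb, the within-mouse difference was larger in all 5 Ac-6-FP mice than in any vehicle mouse. The means differed by 4.52 on the log2 scale (SE 1.59), with an exact permutation p of 0.00794 and a limma adjusted p of 0.83. Without mouse 13, at 0 in both libraries, this difference in response was 3.26 (limma adjusted p = 0.832). The separation rested on the Ly6Chi library of vehicle mouse 11, the only one with Il2rb reads (23). In Ly6Clo alone, that mouse (742 normalized counts) lay within the Ac-6-FP range of 602 to 905. For Il12rb2 the difference in response was 3.77 (SE 1.94, exact permutation p = 0.0556).

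The receptor partners and signalling genes downstream of these chains did not share one direction. Of 22 measured, 2 were higher in Ly6Clo and 2 lower, with a median log2 difference of -0.15 against 0.03 for all genes and 4.45 for the members. Il2rg, the common gamma chain that pairs with Il2rb, was higher, from 18677 to 33509 normalized counts in Ly6Clo and from 3177 to 6793 in Ly6Chi libraries (log2 difference 2.15, limma adjusted p = 1.32e-07, 10 of 10 mice). Il27ra, a chain of the interleukin-27 receptor, was also higher (4.53, adjusted p = 0.00701), but not with edgeR. Myd88, the adaptor of the interleukin-18 receptor, was lower by a small amount (-0.77, adjusted p = 0.0454), a call that held in 8 of 19 alternatives and was lost with edgeR and without the filter. Stat4, which signals for interleukin-12, was not called (2.74, adjusted p = 0.355), although 9 of 10 mice were higher in Ly6Clo, and passed in 1 of 19 alternatives, without mouse 13 (adjusted p = 0.0456).

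Of 7 ligands and decoys measured, Ebi3, a subunit of interleukin-27, and Il18bp, the soluble inhibitor of interleukin-18, were higher in Ly6Clo (log2 differences 1.85 and 4.34, limma adjusted p = 0.00303 and 0.0171), Il18bp not with edgeR. Il18 itself, at 0 to 680.2 normalized counts in Ly6Clo and 455 to 1425 in Ly6Chi libraries, was not called (-2.54, adjusted p = 0.15), although 9 of 10 mice were lower in Ly6Clo (exact permutation p = 0.00391). It passed in 1 of 19 alternatives, with the covariate (adjusted p = 0.039). Of 15 other lymphoid transcription factors, 3 were higher, Gata3 (4.84, adjusted p = 0.0069), Ikzf3 (3.73, adjusted p = 0.00982) and Lef1 (3.15, adjusted p = 0.049), and none was lower. With edgeR 0 of these 15 were called, with the covariate 2 were higher and 3 lower, and Lef1 passed in only 3 of 18 alternatives, not without mouse 13. Of 6 measured partners of Id2 and Runx3, such as the E protein gene Tcf3 and the RUNX cofactor gene Cbfb, none was called, and with the covariate Cbfb was lower (adjusted p = 0.0324). The 4 with the smallest p had adjusted p-values of 0.127 to 0.348.

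Of 11 measured genes known as targets of T-bet and Eomes, 9 were higher in Ly6Clo and 1 lower, with a median log2 difference of 7.25. Prf1 (perforin) ranged from 1606 to 7244 normalized counts in Ly6Clo and was at 0 in all Ly6Chi libraries (log2 difference 12.05, limma adjusted p = 4.84e-08), and Gzmb (granzyme B) and Klrg1 were also higher in 10 of 10 mice (9.88 and 10.72). Hlx, a homeobox factor, was the one that was lower (-3.81, adjusted p = 0.0266), a call that held in 10 of 19 alternatives. With edgeR 7 of the 11 were higher and 0 lower. Of 13 NK receptor adaptors and proximal kinases, 7 were higher, among them Cd247 (CD3 zeta, which pairs with NKp46; 8.75, adjusted p = 4.18e-05), Lck (8.67, adjusted p = 4.88e-05) and Lat (5.87, adjusted p = 0.00174). Tyrobp and Syk, which myeloid cells use as well, were not called (-0.05 and 0.66).

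Markers of several cell types moved with the members between the subsets. The sums given run over all genes of a list in the table, also those below the filter and not tested. List genes at 0 in all Ly6Chi libraries, among them Prf1, Klrg1, Fasl, Klra4, Cpa3, Ms4a2, Gata2 and Il4, passed the filter only through Ly6Clo. Such genes could hardly have been called lower in Ly6Clo. Of 16 NK cell markers, 15 were called higher in Ly6Clo and none lower, and their summed level was 2.14 to 934 normalized counts in Ly6Chi and 49285 to 110408 in Ly6Clo libraries. In the Ly6Clo subset this sum was 49285 to 89129 in vehicle and 55846 to 110408 in Ac-6-FP mice, and none of the 16 was called between treatments. Of 6 ILC1 markers 3 were higher (Tmem176a, Cd69 and Il7r, the last in only 7 of 18 alternatives), with sums of 827 to 1939 in Ly6Chi and 8087 to 14391 in Ly6Clo. Their part in the results for the members was not tested.

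Of 7 T cell markers measured, 1 was called, Cd2, which NK cells also express, and it made up most of a sum of 0 to 531 in Ly6Chi and 1223 to 3378 in Ly6Clo libraries. Cd3e was at 0 in all 10 Ly6Chi and in 8 of 10 Ly6Clo libraries and reached 11.1 normalized counts, and Cd4 was at 0 in all 10 Ly6Clo libraries. Other genes of the list had higher values without passing the test between subsets, with means in Ly6Clo and Ly6Chi of 56.0 and 7.24 normalized counts for Cd3g (limma adjusted p = 0.37) and 126 and 25.3 for Cd28 (adjusted p = 0.446). Between treatments in Ly6Clo, Cd3d, a chain of the T cell receptor complex, stood at 65.1 ± 47.7 in Ac-6-FP and 0.50 ± 1.11 in vehicle mice (SD, n = 5 each), with all 5 Ac-6-FP libraries above the vehicle libraries (exact permutation p = 0.00794, limma adjusted p = 0.207 over all genes). Its part in the treatment differences of the members was not tested.

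All 7 basophil and mast cell markers were higher in Ly6Clo, with sums of 0 to 138 in Ly6Chi and 2416 to 41801 in Ly6Clo libraries. The highest sum was that of mouse 13, the library in which Txk was also highest. That library also had the highest NK cell marker sum of the vehicle mice (89129). The next highest Txk values, those of mice 17 and 16, stood beside basophil and mast cell sums of 12944 and 2713. Between treatments in Ly6Clo, Fcer1a, a chain of the high-affinity IgE receptor, stood at 349 ± 81.7 in Ac-6-FP and 763 ± 157 in vehicle mice (SD, n = 5 each), with all 5 Ac-6-FP libraries below the vehicle libraries (exact permutation p = 0.00794, limma adjusted p = 0.436 over all genes). Dendritic cell markers (4 of 8 higher, 83.8 to 535 in Ly6Chi and 8890 to 22243 in Ly6Clo) and B cell markers (2 of 6 higher, 80.2 to 743 and 0 to 1591) moved the same way. Neutrophil markers were divided, with 2 of 7 higher and 1 lower (sums 9154 to 15696 and 10479 to 125712). A single marker was higher in each of the lists of 6 Kupffer cell (sums 0 to 450.5 and 0 to 962), 6 hepatocyte (504 to 1201 and 1356 to 3042) and 4 endothelial markers (31.9 to 338 and 0 to 4451), and 0 of 2 stellate cell markers was (0 to 212 and 0 to 151). With edgeR 5 of 7 basophil and mast cell, 1 of 6 B cell and 0 Kupffer cell and endothelial markers were called. Their part in the results for the members was not tested.

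Markers of the sorted macrophages were present in both subsets, at sums of 46573 to 76798 normalized counts in Ly6Chi and 26307 to 92336 in Ly6Clo libraries. Of 11, 2 were higher in Ly6Clo (Treml4 and Ace) and 2 lower, Ly6c2 (log2 difference -3.46, 10 of 10 mice lower), which encodes part of the Ly6C antigen used for the sort, and Ccr2 (-1.40). Adgre1, which encodes F4/80, and Itgam, which encodes CD11b, were not called (-0.0033 and -0.45). Itgax, a gene of the dendritic cell list that encodes the CD11c antigen excluded by the sort, was higher in Ly6Clo (9.62, limma adjusted p = 0.000127). It ranged from 0 to 3302 normalized counts there (median 1508) and was at 0 in all Ly6Chi libraries. None of the genes of these lists was called between treatments in Ly6Clo. Of 161 list genes tested there, 3 lay above the vehicle libraries in all 5 Ac-6-FP libraries (Cd3d, Irf8 and Socs3), as did 1.29% of all genes, and 1 lay below them (Fcer1a), as did 0.215%. The plot of summed levels shows the members beside the main marker lists.

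**Figure D4:**
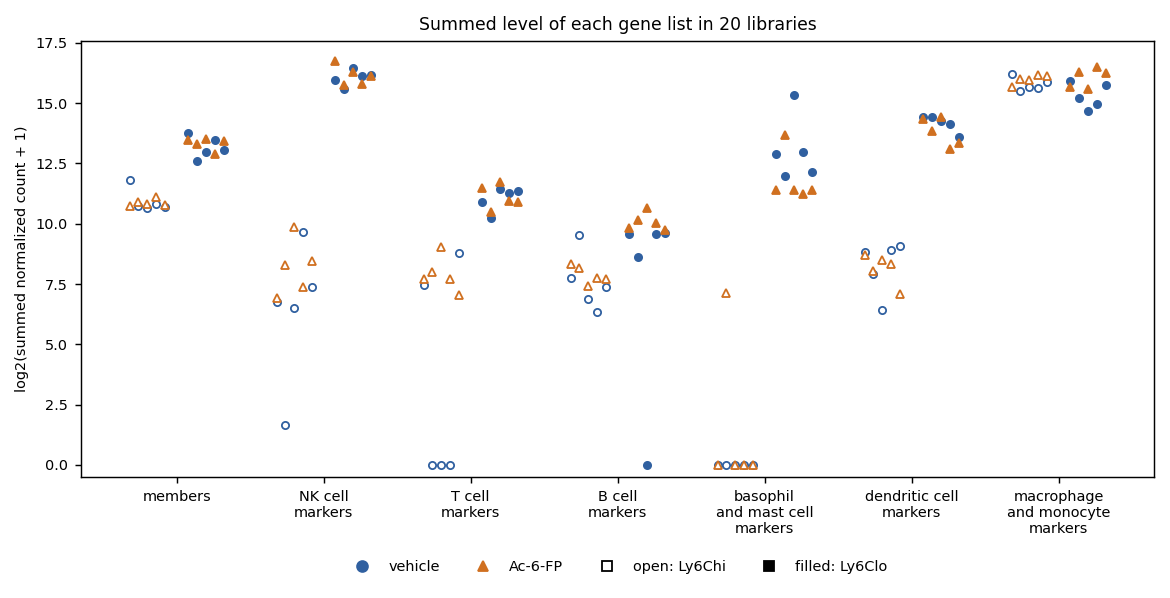
Summed level of each gene list, as log2(summed normalized count + 1) on the vertical axis, in each of 20 libraries. Open symbols are Ly6Chi, filled symbols Ly6Clo, blue circles vehicle and orange triangles Ac-6-FP mice. NK cell markers lie at 49285 or above in Ly6Clo and at 934 or below in Ly6Chi libraries, and the highest basophil and mast cell sum is that of vehicle mouse 13.

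Among the 10 Ly6Clo libraries the members did not rise and fall as one. Of 45 pairs of members, 33 had a positive correlation of log2(normalized count + 1), with a median Pearson r of 0.39 over 10 libraries, whereas without mouse 13 it was 24 of 45 with a median of 0.0024. The pair that held most closely was Il18rap with Il12rb2 (r = 0.96 over 10 and 0.93 over 9 libraries), both at 0 in mice 13 and 14. Other pairs with a positive r with and without mouse 13 were Eomes with Ncr1 (0.67 and 0.81), Id2 with Ncr1 (0.76 and 0.70), Il18r1 with Il18rap (0.79 and 0.69) and Il2rb with Ncr1 (0.91 and 0.63), among others. Txk was negatively correlated with the 9 other members over 10 libraries, the lowest r being -0.69, and with 3 of 9 without mouse 13 (r from -0.51 to 0.49). These points share libraries and depth and are given as a description.

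The genes most like the members were found by the correlation with their mean standardized level over all 20 libraries, which fall into 2 subsets, so that a gene found mostly in Ly6Clo scores high. They were Tnfrsf9 (r = 0.98), a costimulatory receptor of activated lymphocytes, Gem (0.98), a small GTP-binding protein, Fasl (0.98), the Fas ligand of cytotoxic cells, Cd247 (0.98) and Sh2d2a (0.97), a T cell adaptor. Over the 10 Ly6Clo libraries alone the same correlations were 0.88 to 0.93. The mean standardized level was -0.57 in the Ly6Clo library of mouse 13 and 0.27 to 1.16 in the other Ly6Clo libraries. These correlations were not repeated without mouse 13. In Ly6Chi libraries Tnfrsf9, Gem and Fasl were at 0 throughout, and Cd247 and Sh2d2a reached 3.73 and 5.22 normalized counts.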

How the data were processed

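RNA of 20 libraries was prepared by the authors with a low-input kit, sequenced in reads of 75 bases, aligned with STAR 2.4.0 (per the submitters' processing notes) to mm10 and counted on the constitutive regions of FAST DB genes. The deposited signal values are these gene counts, divided by the authors by 1 DESeq2 size factor per library and not by gene length. The counting tool and its use of strand are not given in the sources used here. Libraries were assigned to mice, subsets and treatments by the sample titles, and both libraries of a number come from 1 liver.

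Values were read with Python 3.11.15 and analysed as log2(normalized count + 1) with limma 3.58.1 in R 4.3.3, for the 17248 genes with a mean of 10 or more in any group. Subsets were compared by the within-mouse difference with treatment as a term, and treatments by 5 against 5 mice. Benjamini-Hochberg adjusted p-values under 0.05 over all genes were called. Single members also had two-sided exact permutation tests, not adjusted over the members. Residuals of both libraries of a mouse correlated at 0.0033 to 0.25, and the pairing rests on the shared liver. Whole reads were recovered for 99.86% of values above 0, within a tolerance of 0.006, and tested with edgeR 4.0.16 (quasi-likelihood, TMM). The fits were tested on simulated data with known changes.

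The members and 19 further gene lists were chosen with earlier results of these data known. Of 192 genes in all, 8 were not matched by symbol and are not analysed here. Values of 2 list genes are not reported here. Named genes are the members, the 4 genes of a list with the smallest p between subsets, and the 5 genes most correlated with the members. Other list genes named were chosen after their values were seen. The fits were repeated with pseudocounts of 0.1 and 10, without the filter or with one at 100, after quantile normalization, with genes detected as covariate, with edgeR, unpaired, and leaving out each mouse. Sequences are RefSeq promoters of GRCm38.p6.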

Additional observations from a re-analysis of the deposited data

Results flagged for a closer look

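In groups of 5 libraries, the highest or lowest value of a member lay far from the other 4 in 9 of 30 groups that had any spread, where chance alone flags about 1 in 20 groups of normally spread values. Most of these groups hold several libraries at 0. Among Ly6Clo libraries, Txk stood at 4600 normalized counts in vehicle mouse 13 (the next highest was 895), Tbx21 at 92.6 in vehicle mouse 15 (the next was 1.84), and Il18rap at 67.3 in Ac-6-FP mouse 17, below the next lowest of 314. Among Ly6Chi libraries, Id2 stood at 3513 in vehicle mouse 11 (next 1662), Il18rap at 175.6 in vehicle mouse 12 (next 24.8), Il2rb at 20.4 in vehicle mouse 11, Il12rb2 at 71.2 in vehicle mouse 15 and at 29.3 in Ac-6-FP mouse 18, and Ncr1 at 42.5 in Ac-6-FP mouse 20, the last 4 beside libraries that were all at 0.

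For Il2rb, the mean within-mouse differences of Ac-6-FP and vehicle mice lay 4.52 apart on the log2 scale (exact permutation p = 0.00794). That p is the smallest that 5 mice against 5 allow, with all 5 Ac-6-FP mice above the vehicle mice. Mouse 11 lay below the Ac-6-FP mice only through the 23 reads of its Ly6Chi library. Over all genes the difference did not pass (limma adjusted p = 0.83), with edgeR its unadjusted p was 0.0931, and Il2rb was 1 of 10 members tested.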

How the results depend on the processing

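The number of members called between subsets (6) lay between 4 (edgeR) and 8 (without mouse 13, and with quantile normalization) over all alternatives, and no member was called between treatments under any. Without the replicate block, that is without pairing by mouse, Eomes was also called (3.90, limma adjusted p = 0.0438). Genes called between subsets (900) were 1848 when genes detected per library entered as a covariate, 511 with edgeR, 392 with edgeR without mouse 15 (added after seeing the data, since 1 read of its Ly6Chi library is worth 0.99 normalized counts) and 655 to 1151 with 1 mouse left out. Genes called between treatments in Ly6Clo (9) were 2 with a pseudocount of 10, with no filter, with a filter at 100 and with the covariate, 0 with quantile normalization and with both edgeR fits, and 0 (without mouse 12) to 103 (without mouse 11) with 1 mouse left out. The causes were not tested.

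Differences between treatments in Ly6Clo that turned negative were, under quantile normalization, Eomes -0.19, Il18r1 -0.24, Txk -0.0463 and Runx3 -0.55. With the covariate they were Eomes -0.97, Il18r1 -0.52, Id2 -0.0823 and Runx3 -1.42. With edgeR they were Eomes -0.22, Il18r1 -0.27, Il18rap -0.14, Txk -0.39, Id2 -0.0366 and Runx3 -0.39, and with edgeR without mouse 15 Il18r1 -0.25, Txk -0.58, Id2 -0.12 and Runx3 -0.40. With 1 mouse left out, the ranges were -0.74 to 1.24 for Eomes, -0.0088 to 2.21 for Il18r1, -0.26 to 0.69 for Txk, -0.0609 to 0.31 for Id2 and -1.02 to 1.13 for Runx3. Tbx21 stayed positive, at 0.43 (quantile normalization) to 5.69 (edgeR without mouse 15) over all alternatives. Runx3 between subsets ranged from -0.17 (without mouse 18) to 1.34 (without mouse 13). Of the called differences, Ncr1, Txk, Il2rb and Id2 passed in all 19 alternatives, Il12rb2 in 17 of 19 and Il18r1 in 16 of the 18 that could be fitted, both failing with edgeR. At 0 to 260 reads per subset Tbx21 lies at the limit of detection.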
